A study of Mus musculus with 6 samples.

Results

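Myeloid C-type lectin receptors are membrane proteins with which macrophages, monocytes, neutrophils and dendritic cells bind sugars, glycolipids and other ligands on microbes and dying cells. The set described here holds 10 genes, out of 19938 genes with a probe set naming them alone on the arrays. It was drawn up by name and family: Clec4a1, Clec4a2 and Clec4a3 of the Clec4a (DCIR) group, the activating receptors Clec4d, Clec4e, Clec4n, Clec7a and Clec5a, and Clec4b1 and Clec10a. Each gene has 1 probe set naming it alone, so no member was selected on its level among several probe sets. The genes were chosen by family, after earlier results of the comparison of both labels were known, among them the rise of Clec4a3.

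RNA came from thioglycolate-elicited, plate-adherent peritoneal macrophages of 8-week-old C57BL/6 mice, 3 arrays per genotype, all after lipopolysaccharide (LPS, a bacterial cell wall component) at 100 ng/ml for 6 h. The KLF2∆/∆ arrays come from mice described in the title as LysMCre/Cre with a floxed KLF2 gene (KLF2 FL/FL). The LysMCre/Cre arrays come from mice with the same Cre, which sits in the lysozyme gene Lyz2 and is active in myeloid cells, so both groups carry the Cre and both had thioglycolate and LPS. No untreated cells and no Cre-free mice were analysed here, and the labels give neither sex nor which mouse stands behind which array. The p-values therefore measure the spread between these arrays.

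C-type lectin receptors fall into signalling types. Clec4d (MCL), Clec4e (Mincle) and Clec4n (Dectin-2) pair with the adaptor Fcer1g, and Clec5a (MDL-1) pairs with Tyrobp. Clec7a (Dectin-1), the receptor for fungal beta-glucans, carries its own activating motif, and all of these reach the kinase Syk and, beyond it, Card9. Clec4a2 (Dcir1) carries an inhibitory motif, the ITIM, that recruits phosphatases such as Ptpn6. Clec4a1 (Dcir4) and Clec4a3 (Dcir3) belong to the same group by sequence but have been described as lacking a full ITIM, so "inhibitory" is used here as a name of the group, and no protein sequence was used here.

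The arrays go against their label at the deleted gene. Klf2 gave log2 intensities of 9.10, 9.25 and 9.21 in the arrays labelled KLF2∆/∆, against 8.88, 8.97 and 8.94 in LysMCre/Cre arrays, a change of 0.26 ± 0.064 (SE, limma adjusted p = 0.00398, and 0.0522 with no moderation of variances, the highest of 16 alternatives). The sources used here do not say where its probes lie relative to the floxed part, and a probe lying outside it would check nothing. Directions below are therefore directions between labels. Of 14 general macrophage markers measured, 13 lay above the intensity filter (log2 7.49, the 40th percentile of the probe sets), and Cd163 lay below it. The median log2 intensity per array ran from 7.85 to 7.90 over the non-control probe sets.

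Of the 10 lectin genes, Clec4a1 and Clec4a3 were higher and Clec4d was slightly lower in the arrays labelled KLF2∆/∆, while Clec4e, Clec7a and Clec5a did not pass the test. The remaining 4 genes, Clec4a2, Clec4n, Clec4b1 and Clec10a, had 6-array means under the filter and were not tested. Over all 12649 tested genes, 29.8% had an adjusted p under 0.05 (13.6% as rises and 16.2% as falls). Beside that background, 3 of 6 tested lectin genes is a count too small to read anything from. All 6 tested members lay above the filter in each of the 6 arrays, the lowest single value being 9.27 for Clec5a.

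**Figure D1:**
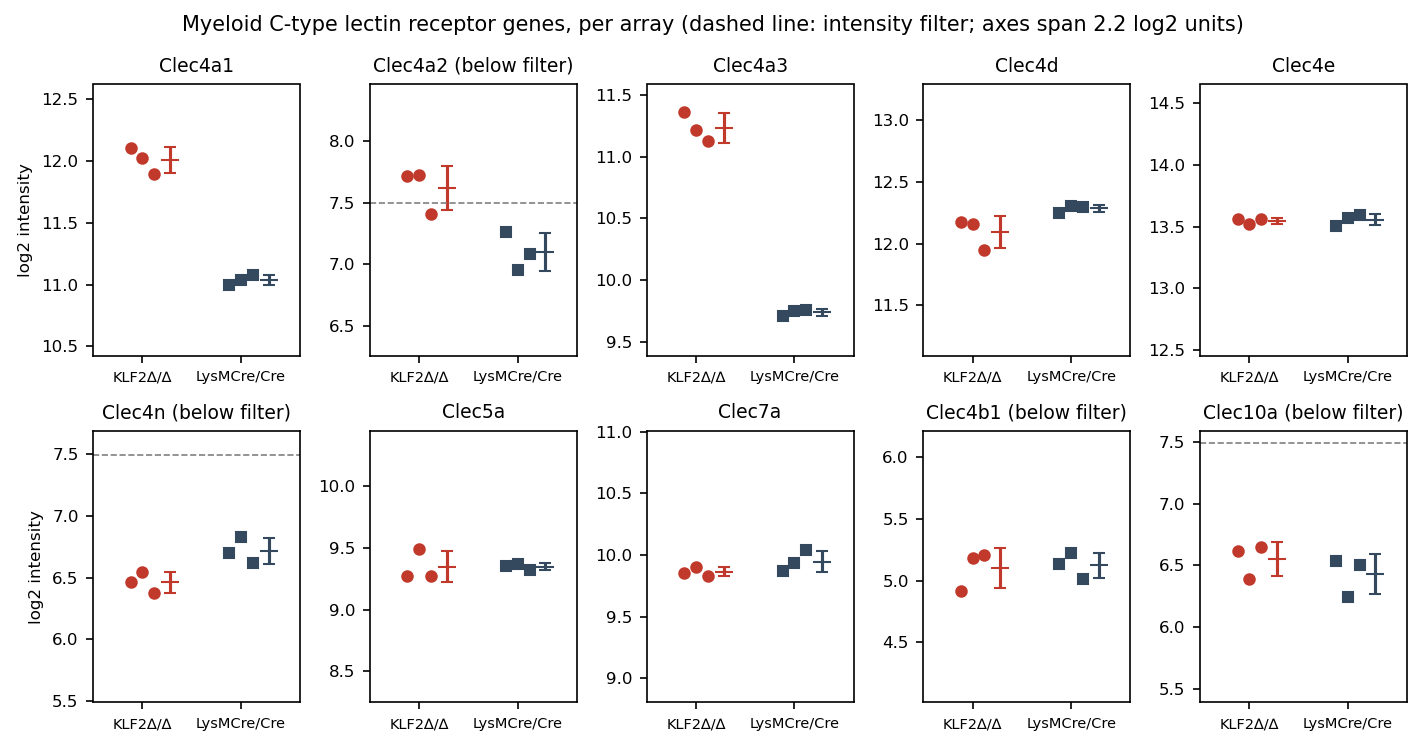
Log2 intensity of the 10 lectin genes in each array, with the 3 arrays labelled KLF2∆/∆ (circles) left of the 3 LysMCre/Cre arrays (squares). Bars give the mean and SD (n = 3), the dashed line is the intensity filter, and all panels span the same log2 range. Clec4a1 and Clec4a3 stand higher without overlap in the arrays labelled KLF2∆/∆, with changes of 0.97 and 1.50, and Clec4a2 lies near the filter.

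Clec4a3 had the largest change of the set. Its log2 intensity was 11.36, 11.21 and 11.12 in the arrays labelled KLF2∆/∆, against 9.71, 9.75 and 9.76 in LysMCre/Cre arrays (probe set 10541564). The groups were far apart: the lowest array labelled KLF2∆/∆ lay well over the highest LysMCre/Cre array. The change was 1.50 ± 0.058 (SE, n = 3 each), or 2.82-fold, with limma adjusted p = 6.06e-13. It ranked 3 among the rises of the 12649 tested genes.

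Clec4a1, the neighbour of Clec4a3 on the chromosome, moved the same way. Its log2 intensity was 12.11, 12.02 and 11.90 in the arrays labelled KLF2∆/∆, against 11.00, 11.03 and 11.07 in LysMCre/Cre arrays (probe set 10541555). Again the groups did not overlap. The change was 0.97 ± 0.051 (SE, n = 3 each), or 1.97-fold, with limma adjusted p = 1.85e-11, rank 12 among the rises. With no moderation of variances the adjusted p was 0.0073, and the exact two-sided permutation p was again 0.1. Clec4a1 and Clec4a3 come from duplicated genes, and the sources used here give no probe positions for them, so a signal shared between them cannot be told apart.

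Clec4a2, the member of the group with the ITIM, gave a signal near the filter. It had 7.72, 7.72 and 7.41 in the arrays labelled KLF2∆/∆, against 7.26, 6.95 and 7.08 in LysMCre/Cre arrays. All LysMCre/Cre arrays and 1 array labelled KLF2∆/∆ were under the filter, so a low value may be background. The groups did not overlap, and the difference of means as measured was 0.52 (exact two-sided permutation p = 0.1, the smallest that 3 arrays against 3 can give). When all 19938 genes were tested with no filter, limma adjusted p was 0.000669.

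Clec4d, an Fcer1g-coupled receptor that works together with Mincle, was lower by a small amount. It had 12.17, 12.16 and 11.95 in the arrays labelled KLF2∆/∆, against 12.25, 12.31 and 12.30 in LysMCre/Cre arrays. The groups did not overlap, and replicate 3 labelled KLF2∆/∆ stood lowest. The change was -0.19 ± 0.050 (SE, n = 3 each), a signal 1.14-fold higher in LysMCre/Cre arrays, with limma adjusted p = 0.00598. Without that replicate it was -0.12 (limma adjusted p = 0.0230), and the call was lost with no intensity trend (adjusted p = 0.0542) and with no moderation of variances (adjusted p = 0.181). Its 16 alternatives spanned 0.00222 to 0.181.

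Clec4e (Mincle), the receptor for mycobacterial cord factor and for a nuclear protein freed by dying cells, did not pass the test. It had 13.56, 13.52 and 13.56 in the arrays labelled KLF2∆/∆, against 13.51, 13.57 and 13.59 in LysMCre/Cre arrays. The change was -0.0084 with a 95% interval of -0.073 to 0.056 (limma adjusted p = 0.877). The highest value of any probe set on any array was 14.75, so Clec4e was read near the top of the scale, and saturation of its probes was not tested.

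Clec7a and Clec5a also overlapped between the groups. Clec7a had 9.85, 9.90 and 9.83 in the arrays labelled KLF2∆/∆, against 9.87, 9.93 and 10.04 in LysMCre/Cre arrays, a change of -0.083 with a 95% interval of -0.21 to 0.040 (limma adjusted p = 0.339). For Clec5a, a receptor of myeloid cells that signals through Tyrobp, the values were 9.27, 9.49 and 9.28 in the arrays labelled KLF2∆/∆, against 9.36, 9.37 and 9.32 in LysMCre/Cre arrays. Its change was -0.0013 with a 95% interval of -0.14 to 0.14 (limma adjusted p = 0.991). The 95% intervals of Clec4e, Clec7a and Clec5a all end well short of the change of Clec4a1, but they do not show that the groups were alike.

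Clec4n (Dectin-2), the receptor for fungal mannans, was under the filter in all arrays, with 6.47, 6.55 and 6.38 in the arrays labelled KLF2∆/∆, against 6.70, 6.83 and 6.62 in LysMCre/Cre arrays. The groups did not overlap, with a difference of -0.25 as measured (exact two-sided permutation p = 0.1), and limma adjusted p was 0.0503 with no filter. Clec4b1 (DCAR), an Fcer1g-coupled receptor, had 4.92 to 5.21 in the arrays labelled KLF2∆/∆ and 5.02 to 5.22 in LysMCre/Cre arrays. Clec10a (MGL1), a galactose-binding lectin used as a marker of alternatively activated macrophages, had 6.39 to 6.65 in the arrays labelled KLF2∆/∆ and 6.24 to 6.54 in LysMCre/Cre arrays. Both overlapped between the groups and lay so low that the arrays do not show whether the genes were expressed.

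Set side by side, the 2 tested Clec4a genes had a median change of 1.23 and the 4 tested activating receptors one of -0.0455, beside a median of 0.0019 over all tested genes. With Clec4a2 and Clec4n included, both below the filter and near background, the medians were 0.97 over 3 genes and -0.083 over 5, a difference of 1.06. No test is given for this contrast, because the genes were chosen with results known. Of the 6 tested members, 2 were higher with no overlap and 1 was lower with no overlap. Among all tested genes 40.8% had no overlap, 19.3% with higher and 21.4% with lower values in the arrays labelled KLF2∆/∆. In bulk RNA, more cells of a type and more RNA per cell cannot be told apart.

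**Figure D2:**
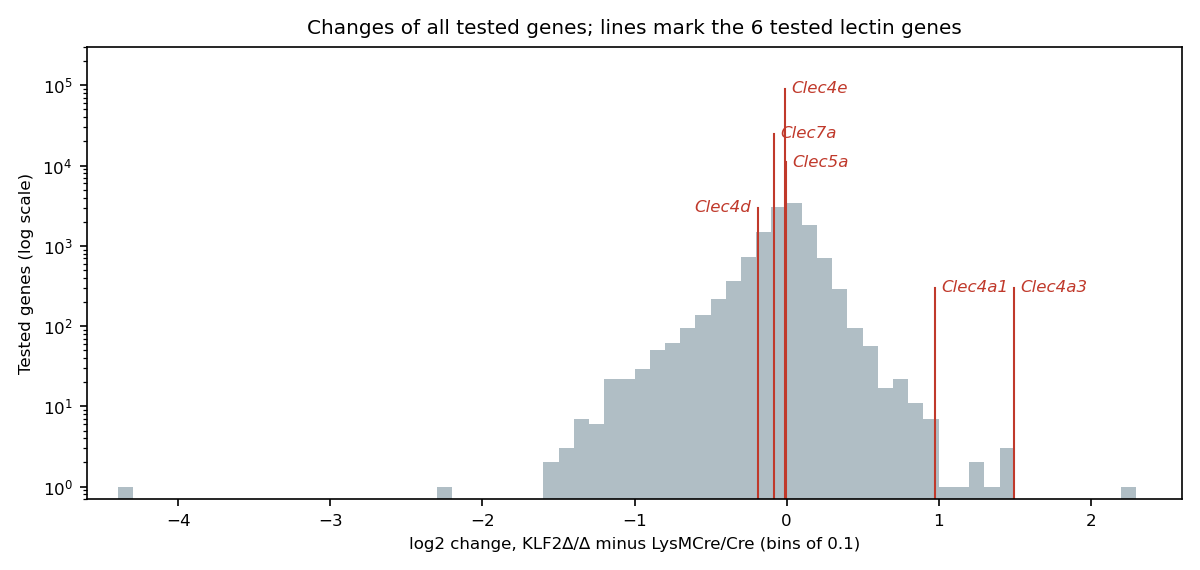
Number of tested genes (log scale) by log2 change, arrays labelled KLF2∆/∆ minus LysMCre/Cre arrays, in bins of 0.1. Red lines mark the 6 tested lectin genes. Clec4a1 and Clec4a3 lie in the right tail, at 0.97 and 1.50, while Clec4d, Clec7a, Clec4e and Clec5a lie within the bulk of genes, between -0.19 and -0.0013.

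The members also differed in how much they varied among arrays of one label. For Clec4a3, Clec4d and Clec5a the SD was 4.09 to 4.39 times as large in the arrays labelled KLF2∆/∆ as in LysMCre/Cre arrays, and for Clec4a1 2.68 times. For Clec4e and Clec7a it was 0.58 and 0.43 times. Among all tested genes, 69.5% had the larger SD in the arrays labelled KLF2∆/∆. Within that label, replicate 3 was the lowest for Clec4a1, Clec4a3, Clec4d and Clec7a, while Clec5a was highest in replicate 2.

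Of the 10 genes, 9 lie on chromosome 6, and the Clec4 genes among them stand in 1 cluster there. In the order of the RefSeq table for assembly GRCm38.p6, the cluster runs Clec4a1, Clec4a3, Clec4a4, Clec4b1, Clec4a2, Clec4b2, Clec4n, Clec4d and Clec4e, with 2 pseudogenes before Clec4n that no probe set names alone. Among the 4 tested cluster genes, Clec4a1 and Clec4a3 stand at one end with changes of 0.97 and 1.50, and Clec4d and Clec4e at the other with -0.19 and -0.0084. The other cluster genes were below the filter. Clec4a4 (Dcir2), which carries an ITIM, had 5.75, 5.81 and 5.65 in the arrays labelled KLF2∆/∆, against 5.65, 5.39 and 5.59 in LysMCre/Cre arrays, and Clec4b2, of the DCAR type, had means of 6.69 and 6.61. Both overlapped between the groups.

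The nearest tested genes on each side were added by position after the files were seen. Before Clec4a1, in order, Foxj2, C3ar1 and Necap1 were higher, by 0.21, 0.49 and 0.27 (limma adjusted p = 0.00250, 3.67e-09 and 0.00158). C3ar1, the receptor for complement C3a, had 13.56, 13.43 and 13.42 in the arrays labelled KLF2∆/∆, against 12.93, 12.99 and 13.01 in LysMCre/Cre arrays. After Clec4e, Vmn2r26, Pex5 and C1rl changed by 0.051, -0.096 and -0.0082 and did not pass (limma adjusted p = 0.711, 0.346 and 0.951). Klf2 lies on chromosome 8 and Lyz2 on chromosome 10. Whether DNA around the cluster differs between the mice of both labels was not tested.

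**Figure D3:**
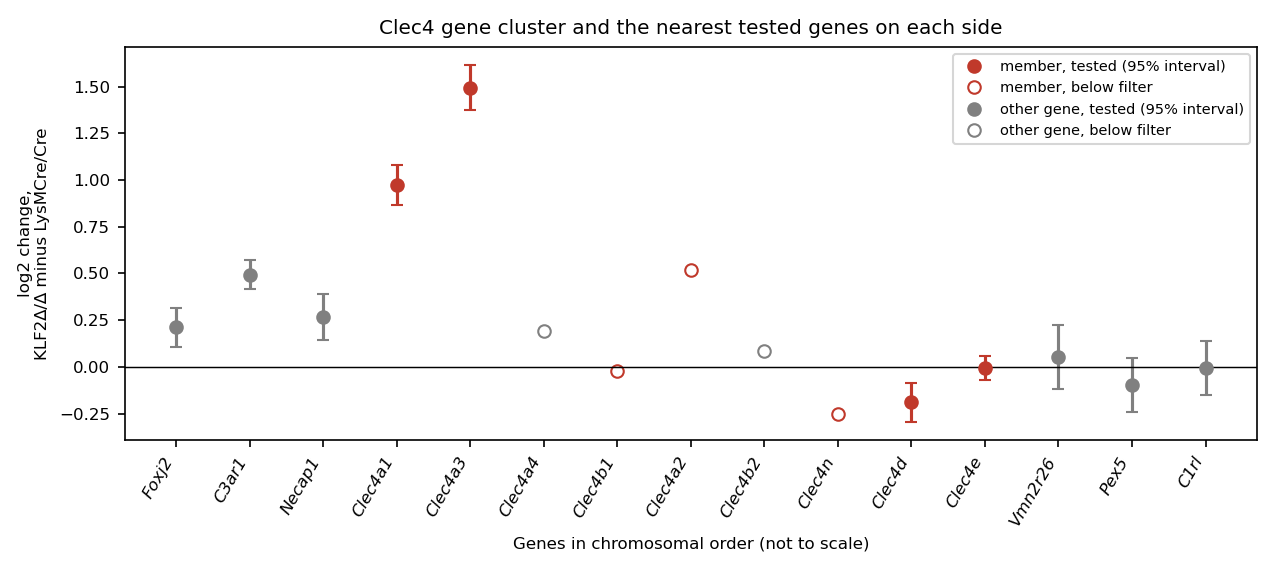
Log2 change, arrays labelled KLF2∆/∆ minus LysMCre/Cre arrays, of the Clec4 cluster genes and the 3 nearest tested genes on each side, in chromosomal order and not to scale. Filled points are tested genes with their 95% intervals, open points are genes below the filter, and red marks the members. Clec4a1 and Clec4a3 stand highest, and Clec4d and Clec4e at the other end lie at -0.19 and -0.0084.

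Promoter windows were read from RefSeq (GRCm38.p6) for 8 of the 10 members, as the 250 bases before the gene's first listed start. The table held none for Clec4n and Clec10a. Both genes that rose are shown with both genes at the far end of the cluster, so that neighbours that moved differently can be compared. Capitals mark CACCC, the box bound by KLF factors, GAGGAAG, a core bound by the myeloid factor PU.1, and TTGCNNAA, a C/EBP motif, on either strand.
Clec4a3 (GRCm38.p6, chr6:122952265-122952514, plus strand): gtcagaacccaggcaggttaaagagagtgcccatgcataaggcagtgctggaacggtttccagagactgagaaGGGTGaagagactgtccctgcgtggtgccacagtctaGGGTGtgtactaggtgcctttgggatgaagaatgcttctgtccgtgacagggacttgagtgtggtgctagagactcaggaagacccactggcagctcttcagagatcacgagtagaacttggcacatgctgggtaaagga
Clec4a1 (GRCm38.p6, chr6:122921598-122921847, plus strand): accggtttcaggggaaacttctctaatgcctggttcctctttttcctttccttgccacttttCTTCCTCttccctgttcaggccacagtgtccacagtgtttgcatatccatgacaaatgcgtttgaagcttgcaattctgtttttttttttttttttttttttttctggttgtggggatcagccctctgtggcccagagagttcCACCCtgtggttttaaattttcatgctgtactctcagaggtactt
Clec4d (GRCm38.p6, chr6:123261857-123262106, plus strand): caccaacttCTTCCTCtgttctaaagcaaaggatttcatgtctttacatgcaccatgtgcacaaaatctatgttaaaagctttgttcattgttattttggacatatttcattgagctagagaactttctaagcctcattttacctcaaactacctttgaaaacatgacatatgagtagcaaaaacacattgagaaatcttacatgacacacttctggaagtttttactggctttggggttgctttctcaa
Clec4e (GRCm38.p6, chr6:123289872-123290121, minus strand): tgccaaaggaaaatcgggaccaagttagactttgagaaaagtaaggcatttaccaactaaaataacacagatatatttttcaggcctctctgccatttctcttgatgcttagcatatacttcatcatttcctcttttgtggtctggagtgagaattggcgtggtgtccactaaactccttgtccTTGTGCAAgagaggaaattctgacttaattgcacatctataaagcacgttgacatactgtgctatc
CACCC or its complement occurred in the windows of Clec4a1 and Clec4a3 and in none of the other 6 windows, but 51.3% of all 27025 promoter windows of this length hold it. GAGGAAG occurred in Clec4a1, Clec4d and Clec5a (10.4% of all windows) and TTGCNNAA in Clec4e (9.55%). TGANTCA, the AP-1 motif, and the NF-kB motif occurred in none of the 8 (6.87% and 1.17% of all windows). No motif overlapped another in these windows. A match is a description of the letters and not of binding.

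Clec4a3 has a second listed start. The window before that start and the window of Clec4a1 share 17 identical bases, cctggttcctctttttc, which was the longest identical run among 43 pairs of member windows, and the next had 12. The run begins 222 bases before the start of Clec4a1 and 55 bases before the second start of Clec4a3. Over the whole first windows, identity between members was 41.0% to 49.5% in a global alignment with gaps counted, and Clec4a1 with Clec4a3 had 43.2%. The window before the second start of Clec4a3, which holds the shared run, was not aligned, so these values do not cover it.

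The genes that act with these receptors were read from lists drawn up by role. Of the adaptor, kinase and signalling genes, 22 were tested. Of these, 9 rose (40.9%, against 13.6% of all tested genes), none fell by limma's test (nor at an unadjusted p of 0.05, where 10 rose), and the median change was 0.12. Fgr, a Src family kinase of myeloid cells, rose by 0.53 ± 0.052 (SE, limma adjusted p = 1.09e-07). The exchange factors Vav3 and Vav1 rose by 0.51 and 0.42, and the lipid kinase gene Pik3cd by 0.33 (limma adjusted p = 2.08e-06, 1.57e-06 and 0.000101). Without single arrays the count of rises was 8 to 10.

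Named after their values were seen because the members signal through them, Syk rose by 0.19 and Card9 by 0.22 (limma adjusted p = 0.00132 and 0.0152). Card9 lost its call without KLF2∆/∆ replicate 2, without LysMCre/Cre replicate 2 and with no moderation (adjusted p up to 0.0826 over 16 alternatives). The paired adaptors did not pass the test. Fcer1g had means of 13.71 in the arrays labelled KLF2∆/∆ and 13.67 in LysMCre/Cre arrays (limma adjusted p = 0.341), and Tyrobp had 12.87 and 12.80 (limma adjusted p = 0.150). After a repeated quantile normalization Fcer1g passed, with an adjusted p of 0.0436 (0.0436 to 0.661 over 16 alternatives). Bcl10 and Malt1, the partners of Card9, changed by 0.015 and -0.0100 and did not pass.

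On the inhibitory side, 12 genes were tested. Of these 4 rose (33.3%, against 13.6% of all tested genes), 1 fell (8.33%, against 16.2%) and 7 did not pass. Their median change was 0.094. The adaptor Dok3 rose by 0.51 ± 0.051 (SE, limma adjusted p = 1.70e-07) and Ptpn6, the phosphatase that ITIMs recruit, by 0.27 ± 0.043 (SE, limma adjusted p = 5.58e-05). Csk rose by 0.17, the lipid phosphatase gene Inpp5d by 0.19, and the phosphatase gene Ptpn11 changed by -0.16 (limma adjusted p = 0.0160, 0.0472 and 0.0235). These calls were lost in 5, 10 and 7 of 16 alternatives, with adjusted p up to 0.0781 for Csk, 0.299 for Inpp5d and 0.125 for Ptpn11. The counts moved with single arrays: only 2 genes rose without LysMCre/Cre replicate 1, 2 or 3, and none fell without KLF2∆/∆ replicate 1 or 3 or LysMCre/Cre replicate 2 or 3.

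Among 46 other C-type lectin and lectin-like genes, 45 had a probe set naming them alone, 24 of these lay below the filter and 21 were tested. Of these 6 rose (28.6%, against 13.6% of all tested genes), 4 fell (19.0%, close to the 16.2% of all tested genes) and 11 did not pass. Their median change was 0.049. Cd72, an ITIM-bearing lectin best known from B cells, rose by 0.94 ± 0.054 (SE, limma adjusted p = 6.24e-11), close to Clec4a1 in size. Klrk1, an activating receptor best known from NK cells, rose by 0.48, with a LysMCre/Cre mean of 7.32 under the filter. Olr1, a receptor for oxidised lipoproteins, fell by 0.74 ± 0.058 on the log2 scale and the scavenger Colec12 by 0.54 (limma adjusted p = 4.94e-09 and 2.80e-06). The count of rises was 3, 3 and 2 without KLF2∆/∆ replicate 1, LysMCre/Cre replicate 1 and LysMCre/Cre replicate 3.

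**Figure D4:**
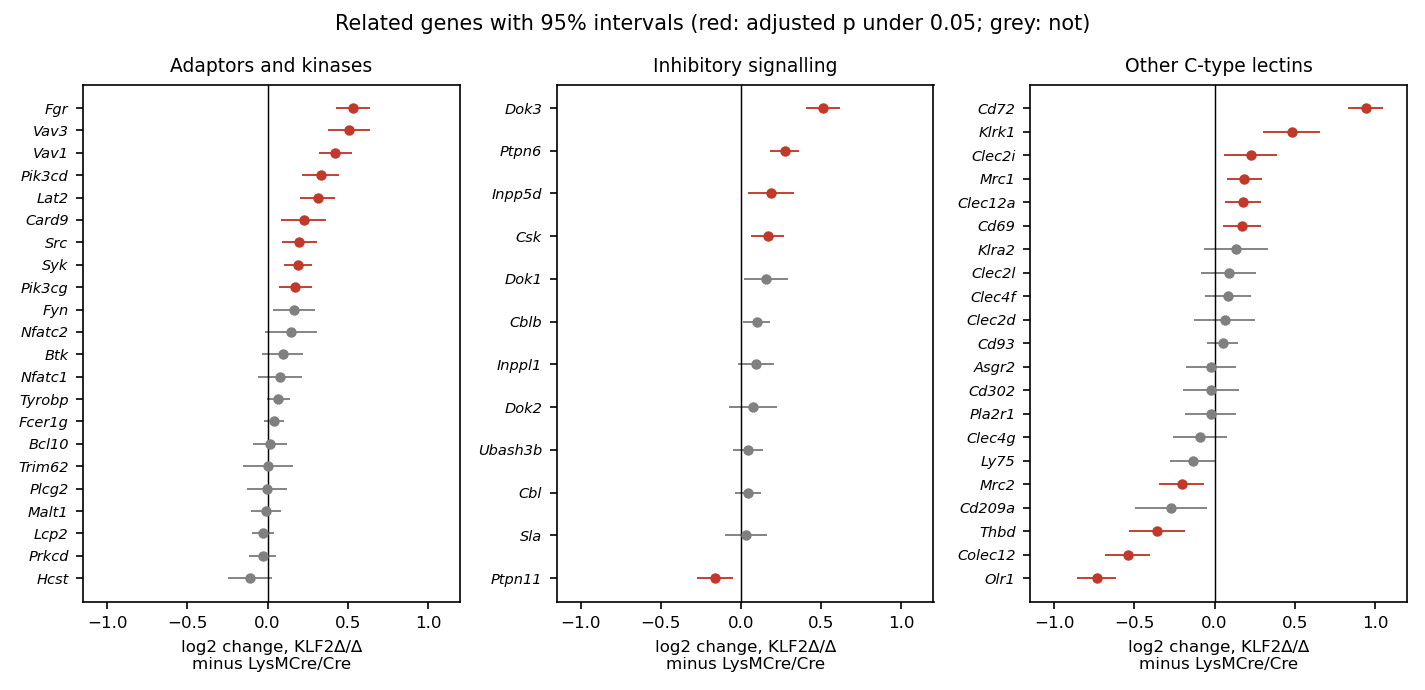
Log2 change with 95% interval, arrays labelled KLF2∆/∆ minus LysMCre/Cre arrays, of the tested adaptor and kinase genes, inhibitory signalling genes and other C-type lectins. Red marks an adjusted p under 0.05. Fgr at 0.53, Dok3 at 0.51 and Cd72 at 0.94 head the panels, and Olr1 at -0.74 is the lowest point.

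Of 6 tested transcription factors of myeloid and inflammatory genes, Spi1 (PU.1) rose by 0.23 ± 0.032 (SE, limma adjusted p = 1.45e-05) and Cebpd by 0.28 (limma adjusted p = 0.0135). The others did not pass, among them Cebpb, a factor known to act on the Clec4e gene, at 0.042 (limma adjusted p = 0.652). None fell, also at an unadjusted p of 0.05, while over all tested genes 13.6% rose and 16.2% fell. Only 1 gene rose without KLF2∆/∆ replicate 2 or 3 or LysMCre/Cre replicate 1 or 2.

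The tested genes whose array values lay nearest to those of Clec4a3, each centred on its own mean and compared by Euclidean distance over the 6 arrays, were Ms4a7, Ms4a6b, Gm5150, Il10 and Kdr. Their distances were 0.21 to 0.39 on the log2 scale, and only 0.364% of tested genes lay nearer than 1. For a gene with so large a change, the distance is set mostly by the difference between the labels. The nearest genes are therefore other large rises, and they need share nothing else. Ms4a7, a membrane-spanning protein of macrophages, had 11.75, 11.65 and 11.53 in the arrays labelled KLF2∆/∆, against 10.30, 10.22 and 10.36 in LysMCre/Cre arrays. For Clec4e, 98.7% of tested genes lay nearer than 1, so its nearest genes (Pkd1l3, Asb10, Zbtb2, Vapb and Wfdc11) share little more than a small spread.

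Marker genes of several cell types also differed between the labels. Over all tested genes, 13.6% rose and 16.2% fell. Of 18 fibroblast and mesothelial markers measured, 17 were tested, of which 14 fell and none rose by limma's test (nor at an unadjusted p of 0.05). Their summed linear intensity was 15513 to 17137 in the arrays labelled KLF2∆/∆ and 27171 to 27490 in LysMCre/Cre arrays, and Lum was below the filter. Of 11 tested resident macrophage markers, 9 fell and none rose (nor at an unadjusted p of 0.05). The sums were 22470 to 24085 in the arrays labelled KLF2∆/∆ and 35334 to 35809 in LysMCre/Cre arrays. Most of each sum came from Fn1 (means of 13.18 and 13.81 in that order) and Saa3 (13.29 and 13.52). Among the falls, Prg4 and F5 had means under the filter in the arrays labelled KLF2∆/∆, 6.63 and 7.26. Both were tested through their LysMCre/Cre means, 11.00 and 7.78. Of 13 tested general macrophage markers 7 rose and 2 fell, with sums of 76853 to 78834 in the arrays labelled KLF2∆/∆ and 70778 to 71782 in LysMCre/Cre arrays. Their part in the changes of Clec4a1, Clec4a3 and Clec4d was not tested.

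Monocytes, neutrophils and dendritic cells also use these receptors. Of 4 tested monocyte markers 2 rose and 1 fell, where 13.6% and 16.2% of all tested genes did. The 1 that fell, Plac8, had a mean of 7.24 in the arrays labelled KLF2∆/∆, under the filter. It was tested through its LysMCre/Cre mean of 7.89. The sums were 6463 to 6733 in the arrays labelled KLF2∆/∆ and 5484 to 5558 in LysMCre/Cre arrays. Most of each sum came from 1 gene, Vcan, with means of 12.29 in the arrays labelled KLF2∆/∆ and 12.04 in LysMCre/Cre arrays. Without LysMCre/Cre replicate 1 none fell, with 3 markers tested. Ccr2 and Chil3 were below the filter, with means of 7.35 and 7.06 in the arrays labelled KLF2∆/∆ and 7.002 and 6.51 in LysMCre/Cre arrays. Neither overlapped between the groups, and with no filter 4 monocyte markers rose. Of 9 tested neutrophil markers 4 rose and 1 fell, with sums of 8015 to 8333 in the arrays labelled KLF2∆/∆ and 6842 to 7068 in LysMCre/Cre arrays, while Ly6g, S100a8, Ngp, Ltf, Mpo and Cxcr2 were below the filter. Most of each neutrophil sum came from 1 gene, Csf3r, with means of 12.30 in the arrays labelled KLF2∆/∆ and 11.92 in LysMCre/Cre arrays. Only 2 neutrophil markers rose without LysMCre/Cre replicate 1 or 2, with no moderation or with no filter, and the LysMCre/Cre means of S100a9 and Mmp8, 7.38 and 7.47, were themselves under the filter. Of 8 tested dendritic cell markers 1 rose and 2 fell, with sums of 6813 to 7051 in the arrays labelled KLF2∆/∆ and 8006 to 8313 in LysMCre/Cre arrays, and Flt3, Xcr1, Itgae and Clec9a were below the filter. All 4 tested mast cell markers fell, with Kit, Cma1, Mcpt4, Tpsab1 and Ms4a2 below the filter and sums of 2778 to 2879 in the arrays labelled KLF2∆/∆ and 3245 to 3384 in LysMCre/Cre arrays. Only 2 of the 4 fell without LysMCre/Cre replicate 1 and with no moderation, and Gata2 (limma adjusted p = 0.0454) lost its call in 10 of 15 alternatives. Only 3 fell without KLF2∆/∆ replicate 1 or 2 or LysMCre/Cre replicate 2 or 3. The count was also 3 after repeated quantile normalization, with no intensity trend, at a threshold of 0.01 and with no filter, where 9 were tested. None of 4 B cell, 2 T and NK cell and 1 eosinophil markers passed limma's test, with 1 B cell marker at an unadjusted p under 0.05. Without KLF2∆/∆ replicate 3 or LysMCre/Cre replicate 3, 1 B cell marker rose, and 1 also did with array weights, with no moderation and under both other filter settings. Their part in the lectin values was not tested either.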

How the data were processed

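RNA of 6 arrays, 3 labelled KLF2∆/∆ and 3 LysMCre/Cre, was measured. The authors deposited log2 values per probe set, which the submitters' processing notes link to Affymetrix Expression Console and RMA, and the same values as linear intensity per the file headers (the tables differ by at most 5.1e-05 on the log2 scale). Software versions, scan dates and the genome build: not given in the sources used here. RMA makes array distributions alike. Of 35557 probe sets, 6613 with the lowest identifiers were left out as controls, and 21789 of the rest name 1 gene (1621 name several, 5534 none). The brightest such probe set stood for each gene, with symbols updated to the RefSeq table of GRCm38.p6 (21698 matched). Genes under the 40th percentile were not tested, which left 12649 of 19938.

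The test was limma 3.58.1, run in R 4.3.3 (lmFit, eBayes with intensity trend, no block), Benjamini-Hochberg adjusted over the tested genes. The code was tested on simulated data. Permutation tests used scipy 1.17.1, alignments Biopython 1.88 (match 1, mismatch -1, gap opening -3, extension -0.5). The number of arrays limits the precision. The members and gene lists were chosen with earlier results of these data known. Named genes are the members, Klf2, the listed genes with the smallest p, the genes within the Clec4 cluster and the nearest patterns to Clec4a3 and Clec4e. Marker lists are given as counts. Alternatives covered the block, scaling, array weights, variance model, filter, probe sets, threshold and leaving out each array.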

Additional observations from a re-analysis of the deposited data

How the results depend on the processing

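Over 16 alternatives, Clec4a1 and Clec4a3 kept their calls, with changes of 0.93 to 1.03 and 1.43 to 1.55, and the difference between the class medians, Clec4a2 and Clec4n included, ran from 1.004 to 1.10. The block, variance model, filter, threshold and mean of probe sets cannot move a member's change, and the linear values repeat the log2 values. These ranges therefore come from the repeated quantile normalization, the array weights and leaving out single arrays. The count of members called higher was 2, or 3 with no filter, which let Clec4a2 in (change 0.52). The count of members called lower was 1, or 0 with no intensity trend and 0 with no moderation (at an unadjusted limma p of 0.05 the count was 1 and 0). With no moderation 2124 genes in all were called, against 3766. Leaving out single arrays gave 2912 to 3799 genes in all, 2 higher members and 1 lower member. Clec5a, which did not pass, had the other sign after quantile normalization was repeated (0.035) and without KLF2∆/∆ replicate 1 (0.036) or 3 (0.034) or LysMCre/Cre replicate 1 (0.0017) or 2 (0.011), in a range of -0.074 to 0.036 without single arrays, and so did Clec4e without KLF2∆/∆ replicate 2 (0.0058) or LysMCre/Cre replicate 3 (0.0092), in a range of -0.032 to 0.0092. Rises among the adaptors and kinases were 9 and with no moderation 6. Among other C-type lectins they were 6, with no moderation 2 and at a threshold of 0.01 also 2. On the inhibitory side 4 rises became 2 at that threshold. The replicate numbers are not said to mark pairs, and deviations from the group means of same-numbered arrays correlated at -0.091, 0.12 and -0.049. With the replicate number as a block, 3824 genes were called and the members kept their counts of 2 and 1, with Clec4d at an adjusted p of 0.00222. Probe sets under the filter (Clec4a2, Clec4n, Clec4b1 and Clec10a) are too close to background for their changes to be sized.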
